A study of Homo sapiens with 6 samples.

Results

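The genes that encode the subunits of RNA polymerases I, II and III were followed in HCT116 cells, a human colorectal carcinoma line, after exposure to NU7441. They were chosen by symbol, as every gene named POLR1, POLR2 or POLR3 with a letter and, where present, a further letter or digit, which gave 33 of the 20045 genes named on the array. Cells received 40 µM NU7441, which blocks the DNA repair kinase DNA-PK, or 0.1% (v/v) dimethyl sulfoxide (DMSO), the vehicle, and RNA was taken after 48 h. Total RNA from each of 3 samples a group was read on its own Illumina bead array. The labels give 1 cell line, and they leave unsaid whether replicates came from different cultures and whether the NU7441 wells also held DMSO. The p-values therefore rest on a spread between samples that may be purely technical.

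Transcription in the nucleus is divided between these enzymes. RNA polymerase I makes the large ribosomal RNA precursor in the nucleolus, RNA polymerase II makes messenger RNA and many small nuclear RNAs, and RNA polymerase III makes transfer RNA, 5S ribosomal RNA and other short RNAs. Each has a large catalytic core of related subunits, a stalk, and subunits that resemble general factors of RNA polymerase II. A few small subunits sit in all of them, and an assembly pair is shared by polymerases I and III. The study's question was how transcript levels differ under the inhibitor. The comparison here is whether the genes of the polymerases differed to a like extent.

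The arrays were alike in quality. Between 16593 and 17788 of 47323 probes were detected per array, and the median signal lay between 72.8 and 75.3. Epithelial markers were present, with EPCAM, CDH1, KRT8, KRT18 and KRT19 each detected on all 6 arrays. Of the 5 markers of other cell types, PTPRC, CD3E, PECAM1 and COL1A2 were detected on 0 arrays and COL1A1 on 5. CDH1 was higher with NU7441, by 0.52 (SE 0.12, adjusted p = 0.00394), and the brightest probes of the other epithelial markers did not pass. A second KRT18 probe was lower, at -0.49 (SE 0.14, adjusted p = 0.0144 when all kept probes were tested). The part of these markers in the results was not tested. Levels are log2 intensities after background correction and quantile normalisation, and a change is the log2 level with NU7441 minus that with vehicle, given with its standard error (SE) from the model and n = 3 arrays in each group. Adjusted p-values are those of limma after Benjamini-Hochberg adjustment over 9342 genes, with a threshold of 0.05. Since arrays were brought to a common distribution, a change is relative to the other transcripts, and fewer cells expressing a gene cannot be told apart from less of its RNA per cell.

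Of the 33 genes, 31 passed the detection filter and were tested. The exceptions were POLR1A, the largest subunit of polymerase I, detected on 1 of 6 arrays, and POLR3D, a subunit of polymerase III, detected on 3 of 6. Of the tested genes, 13 fell and 3 rose, so that 51.6% were called, against 38.5% of all genes tested. The share that fell was 41.9%, against 19.7% of all genes, and the share that rose was 9.68%, against 18.7%. The median change of the 31 genes was -0.20, and that of all genes 0.0022. The groups did not overlap in 21 of the 31, where 49.9% of all genes had groups that did not overlap. A fall of at least 2-fold was found in 2 of the 31, where 2.62% of all genes changed by at least 2-fold in either direction. That count was 0 without background correction and in the submitters' table, where 0.364% and 0.557% of all genes changed by at least 2-fold. It was 1 with probes averaged (2.24% of all genes), without vehicle replicate 1 (2.63%) and without NU7441 replicate 1 (2.84%). Sizes depended on the background correction: without it, the change was more than 1.5 times smaller in 10 of the 16 called genes. That setting also added a constant of 16 to the uncorrected signals. In the submitters' table the change was more than 1.5 times smaller in 9 of the 16.

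The counts by polymerase stand against 19.7% of all genes that fell and 18.7% that rose. Of 5 tested genes found only in polymerase I, 4 fell (80%) and 0 rose, with a median of -0.46. Of 8 tested genes of polymerase III, 4 fell (50%) and 1 rose (12.5%), with a median of -0.29. Of 11 tested genes of polymerase II, 3 fell (27.3%) and 2 rose (18.2%), with a median of 0.16. Without POLR2J2, POLR2J3, POLR2J4 and POLR2M, which are copies of a subunit gene or encode no core subunit, the median of the remaining 7 was 0.014. Of the 7 shared subunit genes, 2 fell (28.6%) and 0 rose, with a median of -0.10, which was 0.048 with scaling to the 75th percentile. The share that rose was near or below that of all genes in every class. The median of polymerase II was 0.063, 0.070 and 0.037 without vehicle replicate 1, vehicle replicate 3 and NU7441 replicate 2, and that of the shared genes was -0.021 and -0.061 without NU7441 replicate 1 and 3. These counts and medians describe the members and were not tested between the classes. The count of genes that rose in polymerase II was 1 without any 1 of the vehicle arrays or without NU7441 replicate 2 or 3. The count that fell was 1 without vehicle replicate 2 or NU7441 replicate 1. In polymerase III it was 2 without vehicle replicate 1 or 3 or NU7441 replicate 2 or 3. The share of all genes called, 38.5% with all arrays, was lower as well. It was 30%, 28.9% and 28.8% without vehicle replicate 1, 2 and 3. Without NU7441 replicate 1, 2 and 3 it was 36.3%, 32.1% and 38.3%.

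**Figure D1:**
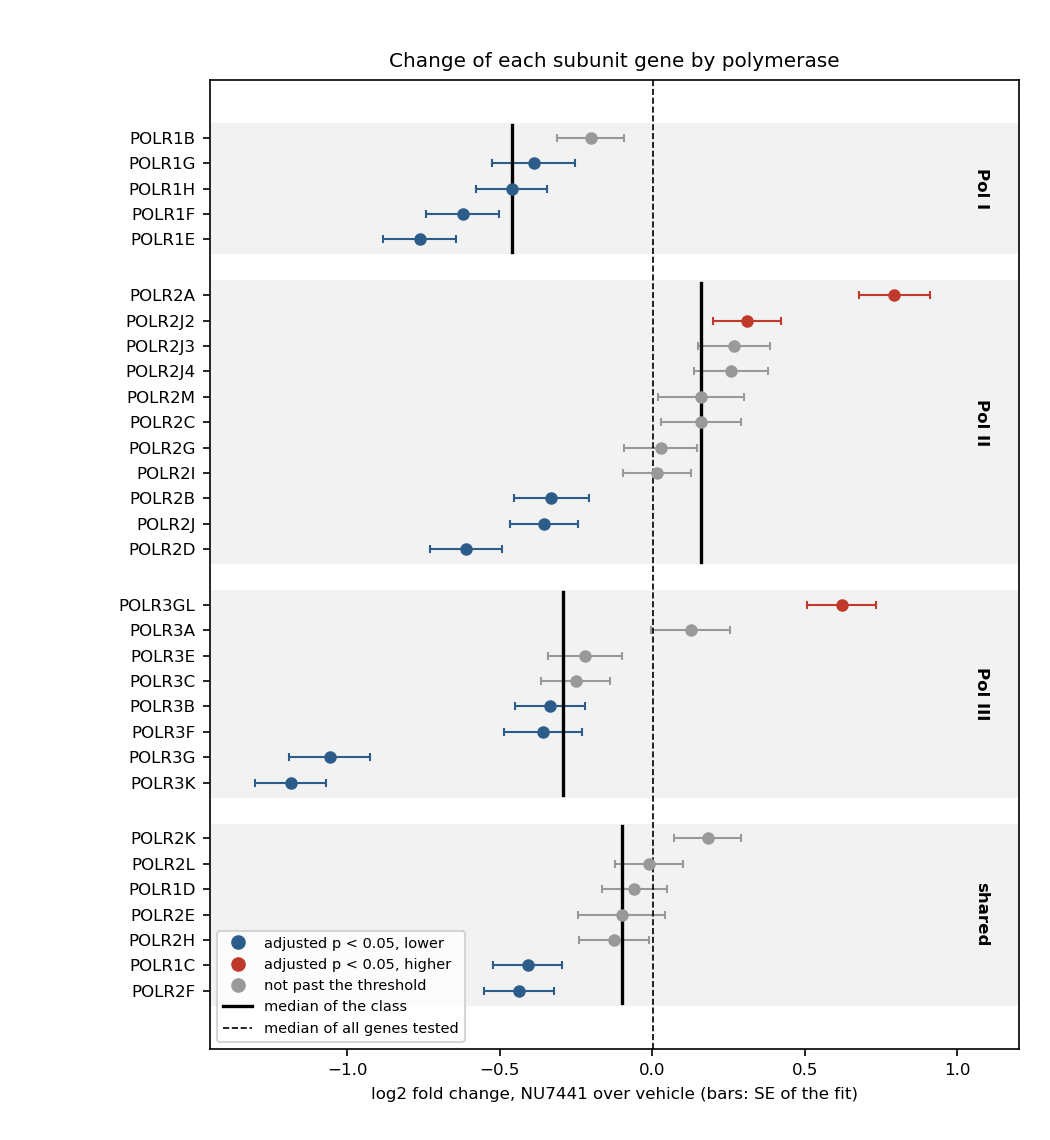
Change (log2, NU7441 minus vehicle) of each of the 31 tested subunit genes, grouped by polymerase, with the SE of the fit as bars. Thick lines are class medians of -0.46, 0.16, -0.29 and -0.10 for polymerase I, II, III and shared genes, and the dashed line is the median of all genes tested.

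The class medians were also read on each array, as the median over a class of the difference from each gene's vehicle mean. For polymerase I they were -0.33, -0.56 and -0.54 on NU7441 replicates 1, 2 and 3. For polymerase III they were -0.24, -0.26 and -0.38. On every NU7441 array both classes thus lay below 0, by more than any vehicle array departed from it. The vehicle arrays themselves set the 0, which keeps their departures from it small, and all genes were not read in this way. For polymerase II they were -0.11, 0.15 and 0.20, so that NU7441 replicate 1 lay on the other side of 0 from the other two. The shared subunits were at -0.13, -0.09 and -0.20, and they too lay farther below 0 than any vehicle array departed from it.

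**Figure D2:**
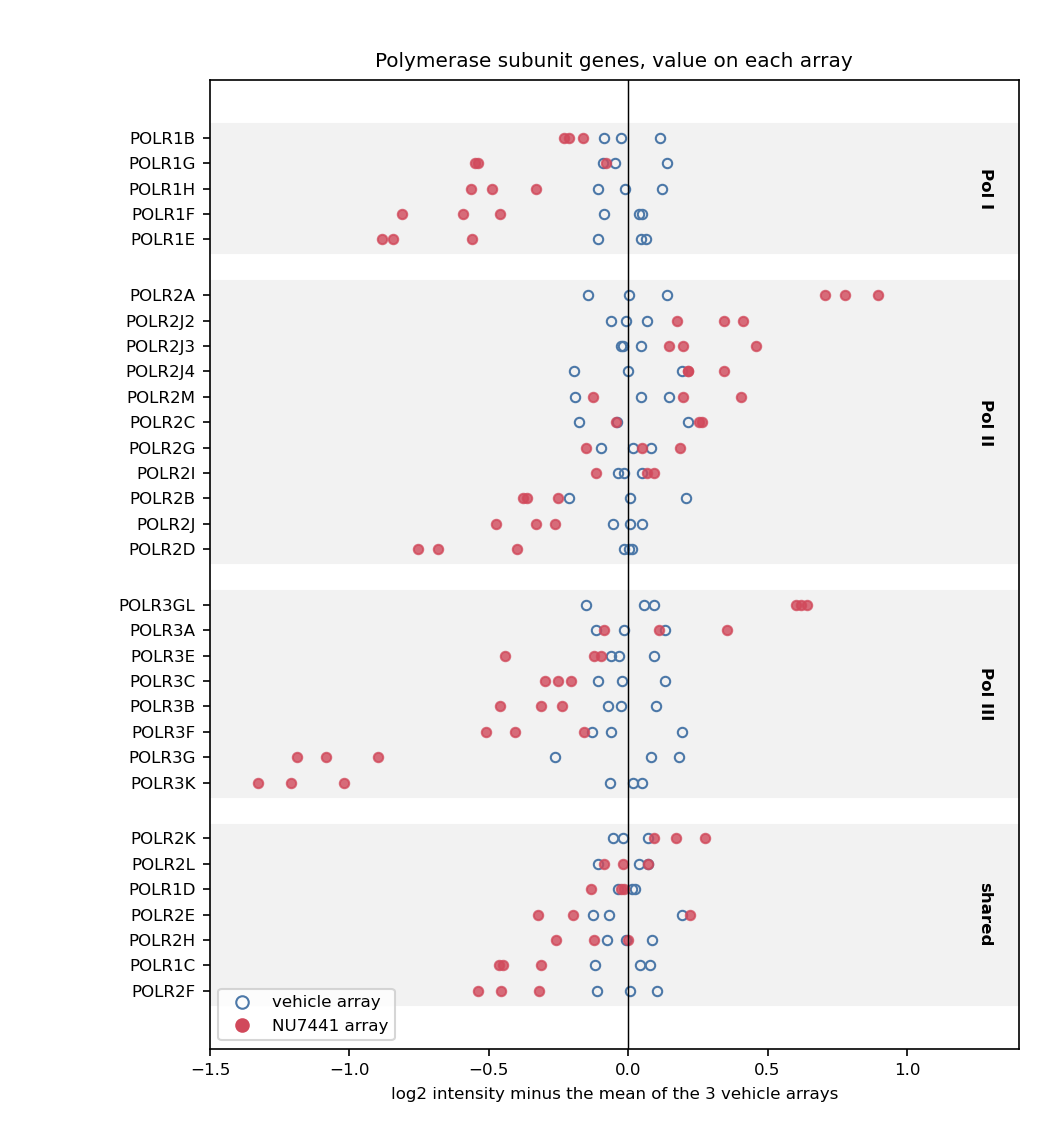
Log2 intensity of each subunit gene on each of the 6 arrays, as the difference from the mean of the 3 vehicle arrays. Open circles are vehicle arrays and filled circles NU7441 arrays, and POLR3K and POLR3G lie farthest to the left, with POLR2A and POLR3GL farthest to the right.

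Upstream sequences from RefSeq (GRCh38.p14) were available for 24 of the 33 genes, as the 250 bases before each annotated start. Those of 5 genes are printed, being the gene with the largest fall (POLR3K), the 2 largest rises (POLR2A and POLR3GL), a polymerase I gene (POLR1H) and a subunit gene shared by polymerases I and III (POLR1C). They lie at chr16:53609-53858 on the minus strand (POLR3K), chr17:7484116-7484365 on the plus strand (POLR2A), chr1:145964440-145964689 on the plus strand (POLR3GL), chr6:30061015-30061264 on the plus strand (POLR1H) and chr6:43516839-43517088 on the plus strand (POLR1C). Capitals mark a match, on either strand, to any of 4 motifs searched: the E-box CACGTG, the ETS core CCGGAAG, the CCAAT box CCAAT and the TATA box TATAAA.
POLR3K: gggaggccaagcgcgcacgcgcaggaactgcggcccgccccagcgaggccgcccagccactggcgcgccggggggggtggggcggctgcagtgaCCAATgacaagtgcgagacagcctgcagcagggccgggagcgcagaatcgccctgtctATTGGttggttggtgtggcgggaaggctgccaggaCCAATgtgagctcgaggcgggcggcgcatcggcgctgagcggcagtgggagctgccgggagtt
POLR2A: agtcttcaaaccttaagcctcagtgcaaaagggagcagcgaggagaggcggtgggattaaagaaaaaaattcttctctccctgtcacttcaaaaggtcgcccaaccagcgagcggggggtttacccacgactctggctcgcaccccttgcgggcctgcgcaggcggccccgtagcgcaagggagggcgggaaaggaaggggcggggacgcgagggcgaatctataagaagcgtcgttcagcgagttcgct
POLR3GL: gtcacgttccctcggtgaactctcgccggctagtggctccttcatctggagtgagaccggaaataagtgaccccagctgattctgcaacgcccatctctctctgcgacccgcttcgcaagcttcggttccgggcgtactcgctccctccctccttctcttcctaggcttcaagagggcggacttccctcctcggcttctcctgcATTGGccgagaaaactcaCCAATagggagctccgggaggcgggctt
POLR1H: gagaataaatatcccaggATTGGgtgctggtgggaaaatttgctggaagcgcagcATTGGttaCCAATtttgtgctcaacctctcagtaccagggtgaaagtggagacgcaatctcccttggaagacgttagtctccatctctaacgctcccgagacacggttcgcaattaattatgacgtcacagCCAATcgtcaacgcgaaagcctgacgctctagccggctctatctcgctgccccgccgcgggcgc
POLR1C: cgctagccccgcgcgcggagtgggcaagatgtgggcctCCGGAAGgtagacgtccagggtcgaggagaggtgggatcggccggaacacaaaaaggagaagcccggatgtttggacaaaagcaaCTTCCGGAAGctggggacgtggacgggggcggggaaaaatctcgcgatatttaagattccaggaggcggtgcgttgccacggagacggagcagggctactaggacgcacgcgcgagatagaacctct
The window of POLR3K held 3 CCAAT boxes and that of POLR1H 4, while that of POLR3GL, a gene that rose, held 2. POLR1C held 3 matches to the ETS core, 2 of which overlap on opposite strands, and POLR2A held none of the 4 motifs. Over all 24 genes, 7 held the ETS core (29.2%, against 10.2% of 27305 genes in the table), 6 the CCAAT box (25.0% against 37.0%), 3 the E-box (12.5% against 7.73%) and 1 the TATA box (4.17% against 13%). Among the 10 with a sequence that fell, 2 held the ETS core, 3 the CCAAT box and 1, POLR1G, the E-box. Among the 10 that did not pass the threshold, 4 held the ETS core and 2 the E-box. Among the 3 that rose, 1, POLR2J2, held the ETS core and 0 the E-box. The ETS core was thus found in genes that fell, that rose and that did not pass. The E-box was found in genes that fell and in genes that did not pass. A match is a run of letters and not a site of binding.

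Of the genes found only in polymerase I, POLR1E, POLR1F, POLR1H and POLR1G fell. POLR1E, a subunit of the TFIIF-like pair that attaches to the core, read 8.17, 8.15 and 8.0 on the vehicle arrays and 7.55, 7.22 and 7.27 with NU7441. All NU7441 arrays were below all vehicle arrays, and the change was -0.76 ± 0.12 (SE, adjusted p = 0.000166), a level 1.70-fold lower. A second, dimmer probe of POLR1E gave -0.69 ± 0.13 (SE). POLR1F, the stalk subunit that contacts the initiation factor RRN3, read 5.57, 5.44 and 5.58 against 5.07, 4.94 and 4.72. Its groups did not overlap and it fell by 0.62 (SE 0.12, adjusted p = 0.000839), and by 0.21 without background correction.

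POLR1H, the subunit that resembles the elongation factor TFIIS and takes part in RNA cleavage, had 3 detected probes. They gave -0.46, -0.69 and -0.65, and on each of them the groups did not overlap. The brightest read 6.48, 6.70 and 6.57 in vehicle and 6.25, 6.02 and 6.10 with NU7441, with an adjusted p of 0.00541, and without background correction its change was -0.25. POLR1G, the partner of POLR1E, read 5.05, 5.24 and 5.01 in vehicle and 5.02, 4.55 and 4.56 with NU7441. NU7441 replicate 1 lay among the vehicle arrays, and the change of -0.39 ± 0.14 (SE, adjusted p = 0.0332) passed the threshold. The adjusted p of POLR1G lay between 0.0548 and 0.139 without any 1 of the vehicle arrays and without NU7441 replicate 2 or 3, and it was 0.00257 without NU7441 replicate 1. Without background correction POLR1G stood at -0.11 (adjusted p = 0.13) and was not called.

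POLR1B, the second largest subunit and the measured part of the polymerase I catalytic core, did not pass the threshold. It read 5.09, 4.89 and 4.95 in vehicle and 4.74, 4.76 and 4.81 with NU7441, a change of -0.20 ± 0.11 (SE, adjusted p = 0.158) although the groups did not overlap. Its second probe stood at -0.27 ± 0.12 (SE), with 1 of 3 NU7441 arrays detected. The 95% confidence interval of the POLR1B change ran from -0.44 to 0.03.

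In polymerase II the largest subunit moved against others of its own enzyme. POLR2A, which holds the active site with POLR2B and carries the repeated tail that coordinates RNA processing, read 8.32, 8.45 and 8.17 in vehicle and 9.02, 9.09 and 9.21 with NU7441. Every NU7441 array was above every vehicle array, and POLR2A rose by 0.79 (SE 0.12, adjusted p = 9.26e-05), or 1.73-fold. POLR2B, the second largest subunit, read 7.65, 7.45 and 7.23 against 7.07, 7.08 and 7.20. The groups of POLR2B did not overlap but lay close, at 7.23 for the lowest vehicle array and 7.20 for the highest NU7441 array. Its change was -0.33 ± 0.12 (SE, adjusted p = 0.0448).

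The call of POLR2B was lost without vehicle replicate 1 or 2 or NU7441 replicate 1 or 2, at adjusted p between 0.0907 and 0.219. The log2 ratio of POLR2A to POLR2B within an array was higher by 1.12 ± 0.11 (SE, n = 3 per group) with NU7441. That pair was chosen after its values were seen, so it is given as a description.

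The stalk of polymerase II, which is made of POLR2D and POLR2G, held a gene that fell and a gene that did not pass. POLR2D read 6.5, 6.49 and 6.47 in vehicle and 5.80, 6.08 and 5.73 with NU7441, a fall of -0.61 ± 0.12 (SE, adjusted p = 0.000895), or -0.305 without background correction. Its groups were well apart. POLR2G read 9.20, 9.32 and 9.38 against 9.15, 9.35 and 9.49, which overlapped throughout, with a change of 0.03 ± 0.12 (SE) and a 95% confidence interval from -0.23 to 0.28. The log2 ratio of POLR2D to POLR2G within an array was lower with NU7441 by a value of -0.64 ± 0.16 (SE), a pair also chosen after its values were seen.

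The assembly pair of polymerase II is formed by POLR2C and POLR2J. POLR2J read 5.13, 5.23 and 5.19 in vehicle and 4.70, 4.92 and 4.85 with NU7441, a change of -0.36 ± 0.11 (SE, adjusted p = 0.0192). Its call was lost without vehicle replicate 2 or 3 or NU7441 replicate 1, at adjusted p between 0.0618 and 0.0684, and it was at 0.179 with 75th percentile scaling. Without background correction POLR2J stood at -0.11 (adjusted p = 0.0832) and was not called. POLR2C stood at 0.16 ± 0.13 (SE) and its second probe at 0.10 ± 0.13 (SE), both with overlapping groups. POLR2I, which resembles TFIIS, stood at 0.01 ± 0.11 (SE, adjusted p = 0.932). POLR2M, which encodes GDOWN1, a protein bound to part of the polymerase II pool, stood at 0.16 ± 0.14 (SE), and 1 of its 4 probes passed the detection filter.

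The copies of POLR2J had positive changes where POLR2J fell. POLR2J2 read 5.57, 5.65 and 5.52 in vehicle and 5.75, 5.92 and 5.99 with NU7441, and rose by 0.31 (SE 0.11, adjusted p = 0.04). POLR2J3 and POLR2J4, the latter a transcribed pseudogene, stood at 0.27 ± 0.12 (SE, adjusted p = 0.0819) and 0.26 ± 0.12 (SE, adjusted p = 0.105). In all 3 copies every NU7441 array was above every vehicle array. The call of POLR2J2 was lost without any 1 of the vehicle arrays and without NU7441 replicate 2 or 3, at adjusted p between 0.0643 and 0.13. Without background correction POLR2J2 stood at 0.13 (adjusted p = 0.0585) and was not called. These genes are near-identical, and how far their probes tell the copies apart was not tested. Of 12 probes listed for POLR2J4, 1 was kept.

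**Figure D3:**
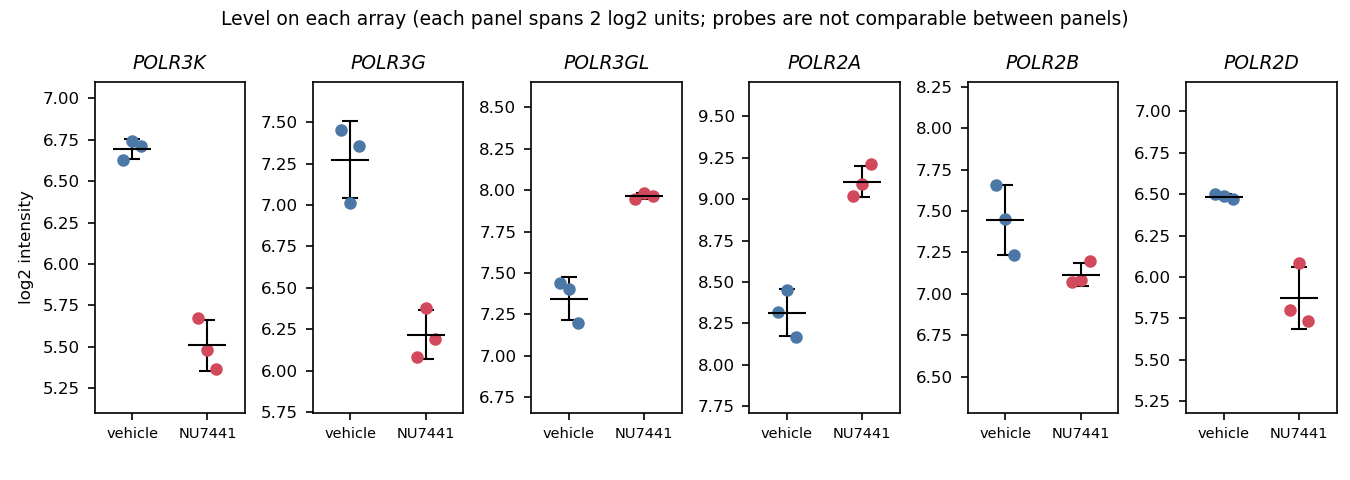
Log2 intensity of 6 subunit genes on each array, with the mean and SD of the 3 arrays per group as bars; each panel spans 2 log2 units and probes are not comparable between panels. POLR3K, POLR3G and POLR2D are lower and POLR3GL and POLR2A higher on every NU7441 array, and the groups of POLR2B lie next to each other.

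Polymerase III held the largest falls among the subunit genes. POLR3K, the subunit that cleaves nascent RNA and takes part in termination, read 6.63, 6.74 and 6.71 in vehicle and 5.67, 5.48 and 5.37 with NU7441. Every NU7441 array was well below every vehicle array, and the change was -1.19 ± 0.12 (SE, adjusted p = 2.48e-06), or 2.27-fold lower. Counted from the most negative change, POLR3K was number 63 of the 9342 genes. The change of POLR3K was -0.58 without background correction and -0.66 in the submitters' table. There the polymerase I gene POLR1E lay close to it, at -0.57 and -0.61. The array held 1 probe for POLR3K.

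The RPC32 subunit of polymerase III exists in alternative forms encoded by POLR3G and POLR3GL. It belongs to a trimer needed for initiation. POLR3G is known for its expression in undifferentiated and transformed cells, and POLR3GL for its broad expression in differentiated tissues. POLR3G read 7.46, 7.01 and 7.35 in vehicle and 6.09, 6.38 and 6.19 with NU7441, a fall of -1.06 ± 0.13 (SE, adjusted p = 2.28e-05), or 2.08-fold lower. Without background correction POLR3G stood at -0.63. POLR3GL read 7.44, 7.40 and 7.20 in vehicle and 7.95, 7.99 and 7.97 with NU7441, and rose by 0.62 (SE 0.11, adjusted p = 0.000501), or 1.54-fold. In both genes the groups were apart, in opposite directions.

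The second detected probe of POLR3G gave -0.51 ± 0.13 (SE, adjusted p = 0.00915 when all kept probes were tested), from a mean of 5.01 to 4.5. It was detected on 3 vehicle arrays and 1 NU7441 array, so its lower level is close to background. The third probe of POLR3G was detected on no array. The log2 ratio of POLR3G to POLR3GL within an array, relative to its vehicle mean, was 0.09, -0.32 and 0.23 in vehicle and -1.79, -1.54 and -1.71 with NU7441. The ratio thus differed by -1.68 ± 0.18 (SE, n = 3 per group), with no overlap.

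Of the remaining trimer subunits, POLR3F fell and POLR3C did not pass. POLR3F read 6.21, 5.89 and 5.96 in vehicle and 5.86, 5.62 and 5.51 with NU7441, at -0.36 ± 0.13 (SE, adjusted p = 0.0366). POLR3C stood at -0.25 ± 0.11 (SE, adjusted p = 0.0872), with groups that did not overlap. Among the core subunits, POLR3B, the second largest, read 6.10, 6.06 and 6.23 in vehicle and 5.89, 5.82 and 5.67 with NU7441, at -0.34 ± 0.11 (SE, adjusted p = 0.0282). The largest subunit, POLR3A, did not pass, at 0.13 ± 0.13 (SE, adjusted p = 0.459), with a second probe at -0.05 ± 0.11 (SE). POLR3E, of the TFIIF-like pair, stood at -0.22 ± 0.12 (SE, adjusted p = 0.161).

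The calls of POLR3F and POLR3B were lost without vehicle replicate 1 or 3 or NU7441 replicate 2 or 3. The adjusted p then lay between 0.0663 and 0.176 for POLR3F and between 0.0553 and 0.119 for POLR3B. With 75th percentile scaling it was 0.119 and 0.105. Without background correction POLR3F stood at -0.16 (adjusted p = 0.0669) and was not called. POLR3G, POLR3GL and POLR3K held their calls without any 1 of the arrays.

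Among the shared subunits, POLR2F and POLR1C fell. POLR2F, present in all the enzymes, read 9.89, 10.11 and 10.01 in vehicle and 9.68, 9.46 and 9.55 with NU7441, a fall of -0.44 ± 0.12 (SE, adjusted p = 0.00699). POLR1C, a member of the assembly pair of polymerases I and III, read 8.48, 8.63 and 8.67 against 8.28, 8.13 and 8.15, at -0.41 ± 0.11 (SE, adjusted p = 0.0095). Both genes had groups that did not overlap. The second probe of POLR1C gave -0.32 ± 0.12 (SE), with an adjusted p of 0.0516 when all kept probes were tested.

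POLR1D, the partner of POLR1C, read 10.09, 10.14 and 10.15 in vehicle and 9.99, 10.10 and 10.11 with NU7441, and was at -0.06 ± 0.11 (SE, adjusted p = 0.692), with a second probe at 0.07 ± 0.11 (SE). POLR2H, POLR2E and POLR2L stood at -0.13, -0.10 and -0.01, all with overlapping groups. The sign of POLR1D, POLR2E and POLR2L turned with 75th percentile scaling. POLR2K stood at 0.18 ± 0.11 (SE, adjusted p = 0.207). It passed the detection filter through the NU7441 group alone, with 1 of 3 vehicle arrays detected, and its adjusted p was 0.0343 with 75th percentile scaling.

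**Figure D4:**
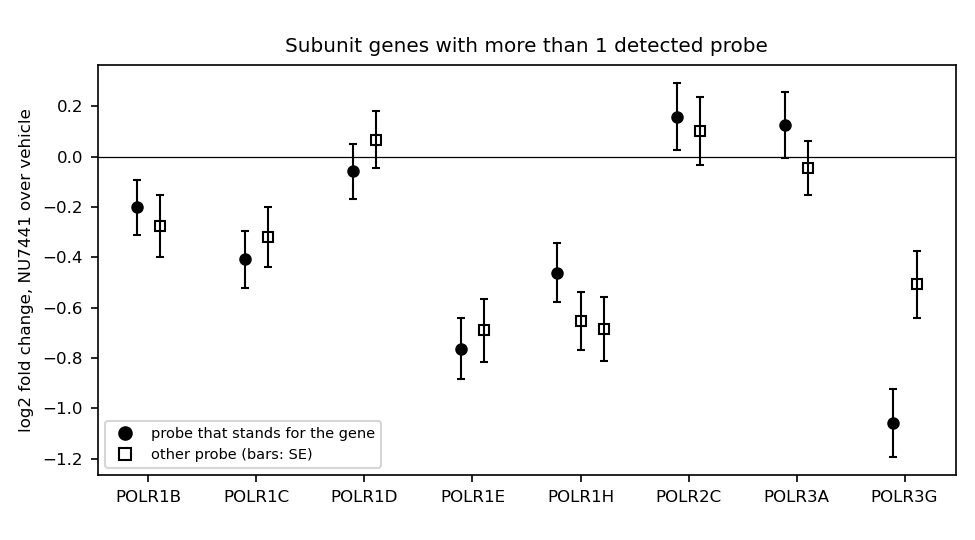
Change (log2, NU7441 minus vehicle) of every detected probe of the 8 subunit genes with more than 1, with SE as bars. Filled circles stand for the gene in the test, and the probes of a gene lie on the same side of 0 except in POLR1D and POLR3A, whose probes lie near 0.

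Subunits with the same place in different polymerases were compared through the log2 ratio of the pair within each array, in an exact two-sided permutation test over the 6 samples. POLR3G and POLR3GL, alternative forms within polymerase III, were compared in the same way. With 3 samples against 3, the smallest p this test can give is 0.1, so no pair could pass 0.05. Of 13 listed pairs 9 could be measured. In 6 of them the groups did not overlap (exact permutation p = 0.1, Benjamini-Hochberg adjusted over the 9 pairs 0.15), one of which was POLR3G and POLR3GL. Of the 9342 genes, for reference, 49.9% had groups that did not overlap. That share is for levels of single genes, and none was computed for ratios of gene pairs. Some of the pairs also share a gene.

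Among the TFIIS-like subunits, the change of POLR2I exceeded that of POLR3K by 1.2 ± 0.15 (SE). The change of POLR1H lay between them, above POLR3K by 0.72 ± 0.07 (SE) and away from POLR2I by -0.48 ± 0.15 (SE). All 3 of these pairs had groups that did not overlap. Among the largest subunits, the change of POLR2A exceeded that of POLR3A by 0.67 ± 0.12 (SE). POLR1E differed from POLR3E by -0.54 ± 0.22 (SE). The groups of this ratio did not overlap but lay close. Relative to its vehicle mean, it was -0.076 on vehicle replicate 3 and -0.12, -0.79 and -0.72 on the NU7441 arrays. The second largest subunits were not set apart: POLR1B differed from POLR2B by 0.13 ± 0.10 (SE) and from POLR3B by 0.13 ± 0.11 (SE), and POLR2B from POLR3B by 0.005 ± 0.19 (SE), with exact permutation p between 0.4 and 1.

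The factors that work with each polymerase were read from the same fit. Of 7 polymerase I factors, 4 fell (57.1%, against 19.7% of all genes) and 1 rose, with a median of -0.36. RRN3, which brings polymerase I to the promoter, stood at -0.50 ± 0.11 (SE, adjusted p = 0.00266). UBTF, which shapes ribosomal DNA chromatin, TTF1, the termination factor, and TAF1A, a subunit of the promoter selectivity factor SL1, were at -0.43, -0.42 and -0.36. UBTF passed the detection filter through the vehicle group alone, with 2 of 3 NU7441 arrays detected. TAF1D, another SL1 subunit, rose by 0.66 (SE 0.14, adjusted p = 0.00185), and a second probe gave 0.67. The count that fell was 2 without vehicle replicate 1 or 3 or NU7441 replicate 1, and 2 with 75th percentile scaling.

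Of 16 measured general factors of polymerase II, 1 fell and 3 rose, with a median of -0.03. The share called was 25%, against 38.5% of all genes, and the share that rose was 18.8%, near the 18.7% of all genes. SUPT4H1, a subunit of the pausing and elongation factor DSIF, rose by 0.77 (SE 0.11, adjusted p = 7.19e-05), and its partner SUPT5H stood at 0.06 ± 0.12 (SE). TCEA2, a form of TFIIS, and GTF2B, the initiation factor TFIIB, were at 0.53 and 0.45. A second probe of TCEA2, at 0.13, did not pass. GTF2E2, a subunit of TFIIE, was the one that fell, at -0.38 ± 0.12 (SE, adjusted p = 0.0187). The count that fell was 0 without vehicle replicate 3 or NU7441 replicate 3 and 2 without vehicle replicate 2 or NU7441 replicate 2. GTF2A1, a TFIIA subunit, was too dim to be tested.

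Of 14 measured polymerase III factors, 2 fell and 1 rose, with a median of -0.12. The share called was 21.4%, against 38.5% of all genes, and the share that fell was 14.3%, against 19.7%. GTF3C6, a subunit of the transfer RNA gene factor TFIIIC, stood at -1.03 ± 0.14 (SE, adjusted p = 6.07e-05), a change of the size seen for POLR3K and POLR3G. The other TFIIIC genes, GTF3C1 to GTF3C5, were between -0.17 and 0.05 and none passed. MAF1, a repressor of polymerase III, rose by 0.45 (SE 0.13, adjusted p = 0.0146), and SNAPC5, of the small nuclear RNA activating complex, was at -0.36 (adjusted p = 0.0489). SNAPC5 passed the detection filter through the vehicle group alone, with 2 of 3 NU7441 arrays detected. The initiation factor genes BRF1 and BRF2 were at -0.02 and -0.05. BRF1 passed the detection filter through the NU7441 group alone, with 1 of 3 vehicle arrays detected. The count that fell was 1 without any 1 of the vehicle arrays or without NU7441 replicate 2, and the count that rose was 0 without vehicle replicate 2 or 3 or NU7441 replicate 1.

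Of 10 measured genes of polymerase assembly and nuclear import, 4 fell (40%, against 19.7% of all genes) and 1 rose, with a median of -0.29. RUVBL1, an ATPase of the R2TP assembly complex, stood at -0.74 ± 0.13 (SE, adjusted p = 0.000295), with a second probe at -0.72. The GTPase genes GPN3 and GPN1, which act in the import of polymerase II, were at -0.64 and -0.35. GPN2 is counted among the 4 by its brightest probe, at -0.48, but its other detected probe rose, at 0.45, so no direction is given for it. UXT, a prefoldin-like protein, stood at 0.45, and its second probe, at 0.15, did not pass. The count that rose was 2 without NU7441 replicate 3. Outside the rule on symbols, CRCP, a subunit of polymerase III, stood at 0.12 ± 0.14 (SE) with a second probe at -0.14, and POLRMT, the mitochondrial RNA polymerase, fell by 0.52 (SE 0.11, adjusted p = 0.00145). MYC, a transcription factor known to raise transcription by polymerases I and III, fell by 0.92 (SE 0.12, adjusted p = 2.47e-05). That is the brightest of 2 kept MYC probes, and the other was not read.

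**Figure D5:**
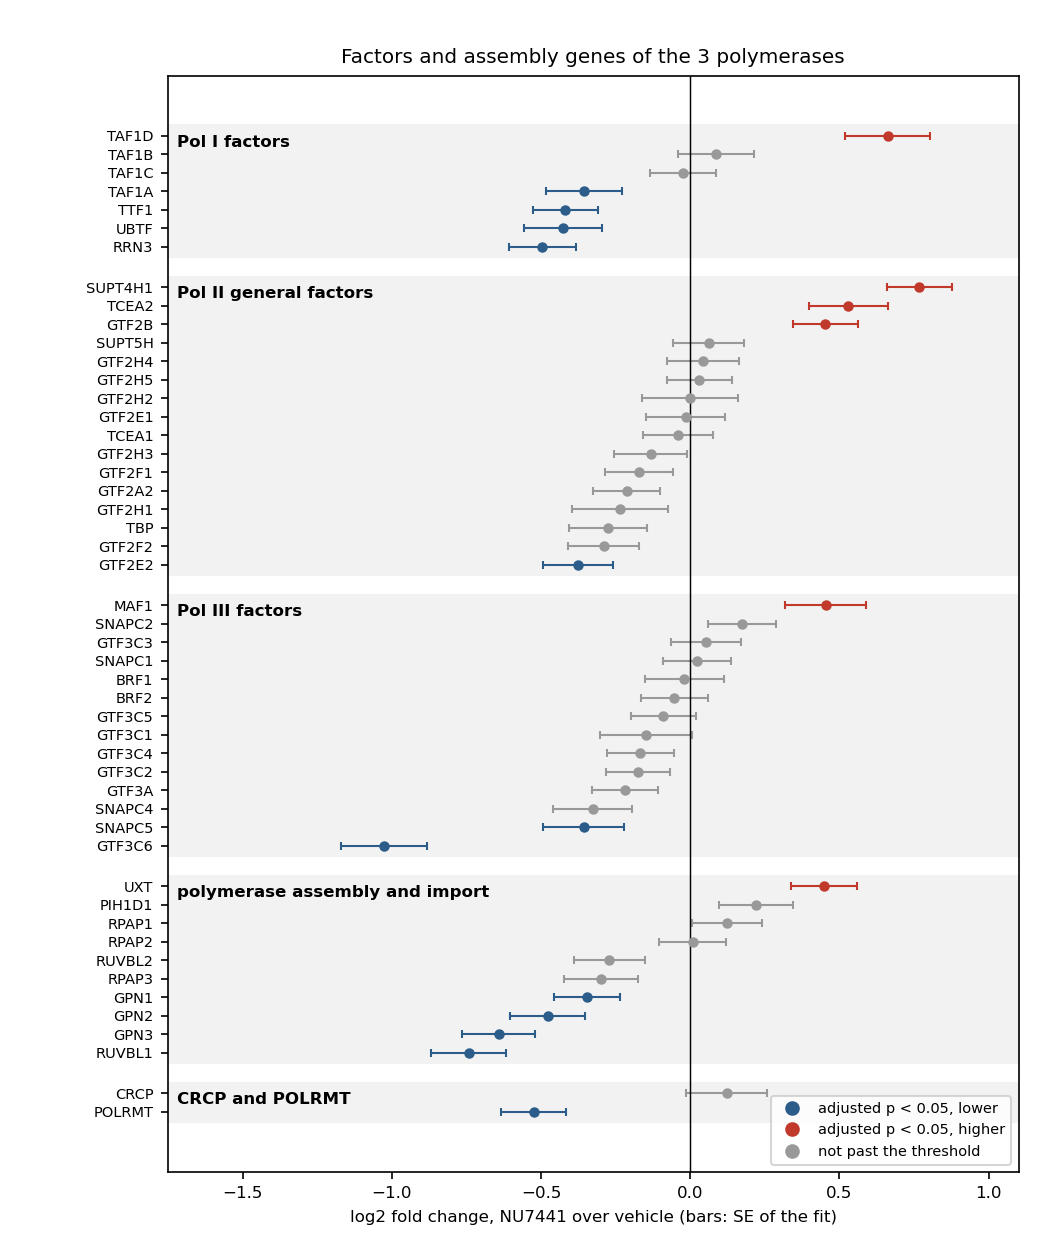
Change (log2, NU7441 minus vehicle) of the measured factors, assembly genes, CRCP and POLRMT, with the SE of the fit as bars. GTF3C6 lies lowest at -1.03 and SUPT4H1 highest at 0.77.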

How the data were processed

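RNA of 3 vehicle and 3 NU7441 samples was measured on Illumina bead arrays. Per the file headers, the authors deposited the signal of each probe, a linear intensity before normalisation, and beside it a detection p-value. A further deposited table holds normalised log2 values, whose scale is unstated. Its columns had a median of 6.22 and differed by at most 0.0612 from quantile-normalised log2 signals, so it is taken as log2 and not centred. It was used as an alternative. The tools named are lumi, GenomeStudio and R 3.0.2, per the submitters' processing notes, with no role stated for any of them. For 1 probe that table holds no value here.

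With limma 3.58.1 in R 4.3.3, intensities were corrected by normexp (negative controls inferred from detection p-values, offset 16), quantile normalised and log2 transformed. This offset shrinks the changes of dim probes, and it was also added in the alternative without background correction. Kept probes were those where all 3 arrays of either group had a detection p below 0.05, which left 14973 of 47323. The brightest kept probe of a gene stood for it. Symbols came from GEO's platform annotation, in which 30112 probes had 1 symbol, 8 several and 17203 none. Groups were compared with lmFit and eBayes, with no covariate. The procedure was tested on simulated data. The number of arrays limits the precision.

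The members and lists were chosen with earlier results of these data known. The rule for named genes took every member and from each list the called genes of largest change, up to 4, and MYC. Other list genes were named after their values were seen. Alternatives were other background corrections, scalings and detection filters, the submitters' table, averaging over probes, trended and robust variances, array weights, a replicate block, a stricter threshold, classes by the digit of the symbol and leaving out each array. Scaling over all probes was added after seeing the data. Sequences are RefSeq's. Python 3.11.15 with matplotlib 3.10.9 drew the figures.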

Additional observations from a re-analysis of the deposited data

How the results depend on the processing

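Of the 16 subunit genes called, 10 kept direction and call under all of 16 alternatives, 6 of which left out 1 array, and had an adjusted p below 0.01: POLR1E, POLR1F, POLR1H, POLR2D, POLR3G, POLR3K, POLR1C and POLR2F, which fell, and POLR2A and POLR3GL, which rose. POLR1G, POLR2B, POLR2J, POLR2J2, POLR3B and POLR3F lost the call under some, though not their direction. Genes called numbered 3592, 2762 to 3653 without 1 array and 2278 at an adjusted p below 0.01, where 1058 rose and 1220 fell. Of the called genes 48.6% rose, 63.2% with 75th percentile scaling and 35.9% with that scaling over all probes. The causes of these differences were not tested. Leaving out an array changes the sample size, the normalisation and the probes kept together. POLR1G, POLR2E, POLR2K and POLR2M, with dim probes, did not pass the stricter detection filter.

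Without 1 array, the genes that fell numbered 3 to 4 in polymerase I, 1 to 3 in II and 2 to 4 in III, and the genes that rose 1 to 2 in II. With 75th percentile scaling 1 fell in II and 2 in III, and 1 shared subunit gene rose. With that scaling over all probes 1 rose in II. At an adjusted p below 0.01, 1 fell and 1 rose in II and 2 fell in III. With the replicate block 1 rose in II, and 1 of the polymerase III factors fell; 14 of the 16 members stayed called. Deviations of same-numbered samples correlated at -0.102, 0.035 and -0.0702, so no deviation shared by number was seen. Such correlations cannot show whether the samples were handled as pairs, which the labels leave unsaid. Factor counts without 1 array were 2 to 4 lower for polymerase I, 0 to 2 lower for II, 1 to 2 lower and 0 to 1 higher for III, and 1 to 2 higher for assembly genes.

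Without background correction the medians were -0.21 (I), 0.045 (II), -0.15 (III) and -0.055 (shared), and in the submitters' table -0.24, 0.053, -0.17 and -0.053. With 75th percentile scaling those of III and the shared genes were -0.23 and 0.048, and over all probes those of II and III were 0.029 and -0.38. With probes averaged that of I was -0.60, with array weights that of the shared genes -0.051, and with classes by digit that of II 0.021. Without 1 array medians ran from -0.56 to -0.40 (I), 0.037 to 0.22 (II), -0.34 to -0.25 (III) and -0.13 to -0.021 (shared).

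Polymerase I factors that fell numbered 2 without background correction, with 75th percentile scaling, in the submitters' table, with no detection filter and at 0.01. Polymerase II factors that fell numbered 3 without background correction, 3 in the submitters' table, 4 with scaling over all probes, 2 with trend and robust and 0 at 0.01. Polymerase III factors that fell numbered 1 with 75th percentile scaling, no detection filter, the strict filter and at 0.01, and 4 with scaling over all probes. Those that rose numbered 0 without background correction, with no detection filter and at 0.01. Assembly genes that rose numbered 0 with scaling over all probes.

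POLR3G minus POLR3GL was -1.09 without background correction, -1.21 in the submitters' table and -1.4 with the mean of probes. POLR1H minus POLR2I was -0.26 and -0.29, POLR1H minus POLR3K 0.33 and 0.38, and POLR2I minus POLR3K 0.59 and 0.67 without background correction and in the submitters' table, and POLR1H minus POLR3K was 0.59 with the mean of probes. POLR1B minus POLR2B was 0.28 with both scalings. POLR2B minus POLR3B was -0.072 without background correction, -0.073 with both scalings, -0.077 in the submitters' table and -0.15 to 0.12 without 1 array.

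Members near 0 changed sign: with 75th percentile scaling POLR1D (0.048), POLR2E (0.059), POLR2I (-0.017) and POLR2L (0.073); over all probes POLR2G (-0.12) and POLR2I (-0.17); with the mean of probes POLR1D (0.0041); with array weights POLR2E (0.016). Without 1 array POLR2E ran from -0.26 to 0.011, POLR2G from -0.051 to 0.12, POLR2I from -0.023 to 0.079 and POLR2L from -0.066 to 0.027.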
